A study of Homo sapiens with 6 samples.

Results

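Transcripts of the matrix metalloproteinases MMP1, MMP2, MMP9, MMP14 and MMP15 and of their inhibitors TIMP1, TIMP2, TIMP3 and RECK were followed in Panc-1 cells, an established human pancreatic adenocarcinoma line, with and without TGFβ. These 9 genes were taken with every probe set that the platform annotation assigns to only one of them, which gave 24 of the 54613 non-control probe sets on the array and 9 of 19777 annotated genes. RNA was hybridised to 6 Affymetrix U133 Plus expression arrays. Untreated cells gave 3 of them, and cells exposed to 5 ng/mL porcine TGFβ1 for 48 h gave the other 3. Both groups were starved of serum for 24 h beforehand. According to the series record, the experiment was done 3 times. The dose is that of the labels, while the study's methods give the same number in nM, and which is right is not settled here. The cells are a single cultured line, without the stroma and immune cells that produce much of the proteinase activity of a tumour.

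Matrix metalloproteinases are zinc-dependent enzymes that cut the proteins of the extracellular matrix. They are made as inactive proenzymes, and activation requires removal of the propeptide, inside the cell by furin for the membrane-anchored members and at the cell surface for others. TIMPs are small secreted proteins that block the active site. RECK is an inhibitor attached to the outer cell membrane by a lipid anchor. In pancreatic and other carcinomas this system is known for its part in invasion through basement membrane, and TGFβ is a known regulator of several of its genes.

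The platform measures a probe set, a group of short oligonucleotides matched to a stretch of transcript, and its value is a log2 signal. A probe set was tested where its mean signal reached 100 (6.64 on the log2 scale) in at least one group, the limit used in the study's methods. Of the 24 probe sets, 10 passed that limit and 14 did not. Tests were made with limma over all probe sets or genes that passed, with the replicate number as a block, and an adjusted p under 0.05 counted as changed. Differences below are log2 values, TGFβ minus untreated, and SE is the model's standard error.

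Among the 10 probe sets above the limit, 7 rose, 1 fell and 2 did not pass the test. Across all 19101 probe sets tested, 55.1% were called, 26.6% as higher and 28.5% as lower. The median log2 fold change of the 10 was 0.52, against -0.0079 for all probe sets tested. Several of the 10 read the same gene and are not independent of each other, and TIMP2, RECK and MMP14 account for 6 of the 7 that rose. Of the 14 below the limit, 1 rose and none fell in a fit of all 54613 probe sets without the limit. That fit called 20.2% of all probe sets, bright and dim together, and no share was taken over dim probe sets alone. For MMP1, MMP9, TIMP1, TIMP2 and TIMP3 the RefSeq annotation has other genes overlapping the locus.

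**Figure D1:**
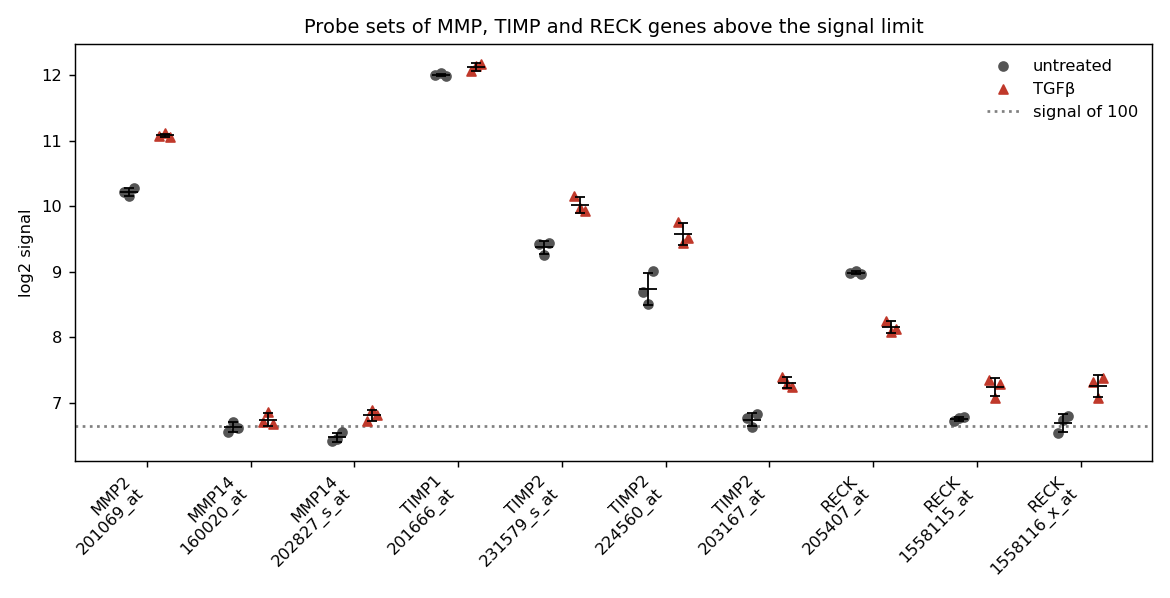
Log2 signal on each array (vertical axis) for the 10 probe sets above the signal limit (horizontal axis). Circles are the 3 untreated arrays, triangles the 3 TGFβ arrays, black bars the mean and SD of a group, and the dotted line a signal of 100 (6.64). MMP2 and the 3 TIMP2 probe sets lie higher with TGFβ on all 3 arrays, RECK probe set 205407_at lies lower, and the levels of different probe sets are not comparable with each other.

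MMP2 showed the largest rise of the enzymes. It encodes gelatinase A, which cuts denatured collagen and the type IV collagen of basement membranes. Its probe set 201069_at read 10.23, 10.16 and 10.28 on the untreated arrays and 11.07, 11.11 and 11.06 on the TGFβ arrays. All treated arrays were higher than all untreated ones, and 65.5% of all probe sets tested had groups that did not overlap. For MMP2 the gap was much wider than the spread within a group. The mean went from 10.22 ± 0.058 to 11.08 ± 0.029 (SD, n = 3), 1.82-fold higher (log2 fold change 0.86, SE 0.060, limma adjusted p = 0.000142). Among all 19101 probe sets tested, 3.20% had a larger rise. In bulk RNA, a change in the number of cells that make a message and in the amount per cell cannot be told apart.

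Another pair of probe sets assigned to MMP2 gave dim signals and did not follow it. Probe set 1566678_at lay at 4.73 and 4.74 and probe set 1566677_at at 3.68 and 3.77 without and with TGFβ, and their adjusted p values were 0.961 and 0.583 in the fit without a signal limit. With these 2 averaged in, the log2 fold change of MMP2 was 0.32 (adjusted p = 0.00576) in place of 0.86. RefSeq lists 5 transcripts for MMP2, and no source used here says which of them a probe set reads.

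MMP14, also called MT1-MMP, is anchored in the membrane and activates proMMP2 at the cell surface in a complex with TIMP2. As a gene, averaged over its 2 probe sets above the limit, MMP14 was 6.49, 6.58 and 6.58 in untreated cells and 6.71, 6.88 and 6.74 in treated cells. The groups did not overlap, as was so for 65.5% of all probe sets tested. Both probe sets were tested only through their treated means, so MMP14 had to be higher to be measured. Its rise was small (log2 fold change 0.23, SE 0.052, limma adjusted p = 0.0110, a 1.17-fold increase). The call was lost without replicate 2 (0.19, adjusted p = 0.0931), with the limit set on the mean over all arrays (0.12, adjusted p = 0.0835) and with the brightest probe set standing for the gene (0.12, adjusted p = 0.104).

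All 4 probe sets of MMP14 had positive log2 fold changes, of unequal size. Probe set 202827_s_at rose from 6.48 ± 0.067 to 6.81 ± 0.090 (SD, n = 3; log2 fold change 0.34, limma adjusted p = 0.00534), and like 160020_at it entered the test through its treated arrays, since its untreated mean was below the limit. Probe set 160020_at went from 6.63 ± 0.075 to 6.75 ± 0.096 (SD, n = 3) and did not pass (adjusted p = 0.117), with overlapping groups. Below the limit, 202828_s_at went from 6.06 ± 0.11 to 6.50 ± 0.081 (SD, n = 3; log2 fold change 0.45, limma adjusted p = 0.00908 in the fit without a signal limit). That call was lost without replicate 2 (adjusted p = 0.0581). The dimmest, 217279_x_at, lay at 5.07 and 5.18 (adjusted p = 0.410).

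MMP1, MMP9 and MMP15 did not reach the signal limit in either group. MMP1 is the interstitial collagenase that opens fibrillar collagen, and its probe set read 3.72, 3.92 and 3.80 in untreated and 3.93, 3.83 and 3.96 in treated cells, with overlapping groups. MMP9, gelatinase B, read 5.55, 5.82 and 5.80 in untreated and 5.65, 5.70 and 5.77 in treated cells, again overlapping. In the fit of all 54613 probe sets without a signal limit, their log2 fold changes were 0.093 (SE 0.083, adjusted p = 0.535) and -0.013 (SE 0.077, adjusted p = 0.945). These values are for dim probe sets and show neither the presence nor the absence of the message.

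MMP15, a second membrane-anchored enzyme (MT2-MMP), came closest to the limit. Its brighter probe set 203365_s_at read 6.47, 6.42 and 6.50 in untreated and 6.52, 6.64 and 6.69 in treated cells, so that the groups did not overlap but differed little (log2 fold change 0.15, SE 0.075, limma adjusted p = 0.227 without a signal limit). Groups did not overlap for 36.0% of all 54613 probe sets. Its other probe set, 243883_at, had an SD of 0.32 among treated arrays and a log2 fold change of 0.043 (adjusted p = 0.893).

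Among the inhibitors, TIMP2 rose on each of its probe sets. TIMP2 inhibits many metalloproteinases and, bound to MMP14, also serves as the docking site for proMMP2. Averaged over the 3 probe sets, it read 8.30, 8.14 and 8.43 in untreated and 9.11, 8.91 and 8.90 in treated cells, with no overlap. The mean rose from 8.29 ± 0.15 to 8.97 ± 0.12 (SD, n = 3), 1.61-fold (log2 fold change 0.68, SE 0.078, limma adjusted p = 0.000677). Of the 10115 genes tested, 4.67% had a larger rise than TIMP2 and 3.09% a larger rise than MMP2.

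Each TIMP2 probe set passed on its own in limma. Probe set 224560_at read 8.70, 8.51 and 9.01 without and 9.77, 9.45 and 9.52 with TGFβ (log2 fold change 0.84, SE 0.11). For 231579_s_at the readings were 9.42, 9.26 and 9.44 against 10.16, 9.98 and 9.94 (0.65, SE 0.070), and for 203167_at 6.77, 6.63 and 6.83 against 7.40, 7.29 and 7.24 (0.56, SE 0.070). All 3 separated the groups fully, as did 65.5% of all probe sets tested. Their limma adjusted p values were 0.00143, 0.000651 and 0.00109.

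TIMP1, a broad inhibitor that also binds proMMP9, had a bright signal and differed little between groups. It read 12.00, 12.03 and 11.99 in untreated and 12.06, 12.15 and 12.18 in treated cells. Every treated array lay above every untreated one, by small amounts, and 65.5% of all probe sets tested were separated in this way. As a gene it missed the threshold (0.12 on the log2 scale, SE 0.052, limma adjusted p = 0.0877). It did pass with an intensity trend in the variance model (adjusted p = 0.0189) and without replicate 1 (0.15, adjusted p = 0.0371).

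TIMP3, the TIMP that stays bound to the matrix, was below the limit on all 4 probe sets. The brightest, 201148_s_at, lay at 6.11 ± 0.12 without and 6.08 ± 0.12 with TGFβ (SD, n = 3), with overlapping groups. The other 3 had log2 fold changes of 0.25, 0.26 and 0.14, and none passed (adjusted p = 0.0526, 0.146 and 0.395 in the limma fit without a signal limit). Probe set 201149_s_at, which read 4.73, 4.84 and 4.65 against 5.06, 5.00 and 4.90, passed without the replicate block (adjusted p = 0.0441).

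**Figure D2:**
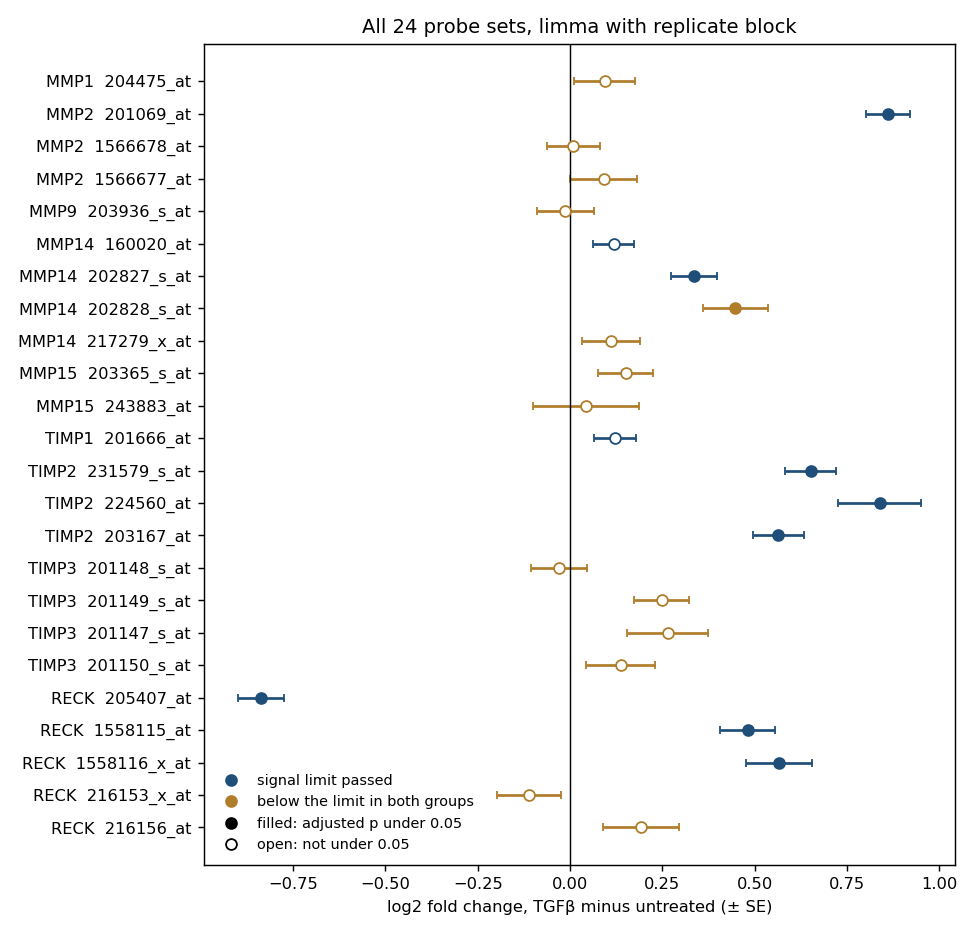
Log2 fold change with TGFβ (horizontal axis, TGFβ minus untreated, bars are the SE of limma) for each of the 24 probe sets (vertical axis, n = 3 arrays per group). Blue marks probe sets that passed the signal limit and brown those below it in both groups, which come from the fit without a limit, and filled points had an adjusted p under 0.05. RECK has points on both sides of 0, at -0.84 and at 0.48 and 0.56.

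RECK gave opposite changes on different probe sets. The protein inhibits MMP2, MMP9 and MMP14 at the cell surface. Probe set 205407_at read 8.99, 9.01 and 8.97 in untreated and 8.26, 8.08 and 8.13 in treated cells, a fall from 8.99 ± 0.022 to 8.15 ± 0.092 (SD, n = 3) that made it 1.79-fold lower. Treated arrays were all lower than untreated arrays, and 65.5% of all probe sets tested were separated in either direction. The log2 fold change was -0.84 (SE 0.063, limma adjusted p = 0.000189), and 3.42% of all probe sets tested had a larger fall.

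Probe sets 1558115_at and 1558116_x_at of RECK rose. The first read 6.73, 6.77 and 6.78 in untreated and 7.36, 7.08 and 7.29 in treated cells (log2 fold change 0.48, SE 0.075, limma adjusted p = 0.00262). The second read 6.55, 6.74 and 6.80 against 7.31, 7.08 and 7.39 (0.56, SE 0.090, adjusted p = 0.00288). Neither had overlapping groups, as was so for 65.5% of all probe sets tested. The platform annotation gives both the same source sequence, so they may not be independent readings. Probe sets ending in _x_at may share oligonucleotides with other transcripts.

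The remaining RECK probe sets were below the limit and did not pass. 216153_x_at lay at 6.21 ± 0.075 and 6.10 ± 0.11, and 216156_at at 3.64 ± 0.050 and 3.84 ± 0.21 without and with TGFβ (SD, n = 3). Within each array, 205407_at minus 1558115_at was 2.26, 2.24 and 2.19 in untreated and 0.90, 0.99 and 0.84 in treated cells. This difference fell by 1.32 on the log2 scale, with no overlap between groups (exact two-sided permutation p = 0.10, the smallest that 3 against 3 arrays allow, and 0.15 adjusted over the 3 genes with such a pair). The MMP14 pair, 160020_at minus 202827_s_at, fell by 0.22 with the same p values and also without overlap, and the TIMP2 pair by 0.19 with overlapping groups (exact permutation p = 0.20).

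Averaged into 1 value, RECK therefore hardly differed between groups. The mean of its 3 probe sets above the limit was 7.48 ± 0.053 without and 7.55 ± 0.12 with TGFβ (SD, n = 3; log2 fold change 0.070, limma adjusted p = 0.427). With the brightest probe set alone it was -0.84 (adjusted p = 8.40e-05). Without that probe set, a choice made after the values were seen, it was 0.52 (adjusted p = 0.00199). RefSeq lists 6 transcripts for RECK, and no source used here says which of them a probe set detects, so no direction is given for the gene as a whole.

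**Figure D3:**
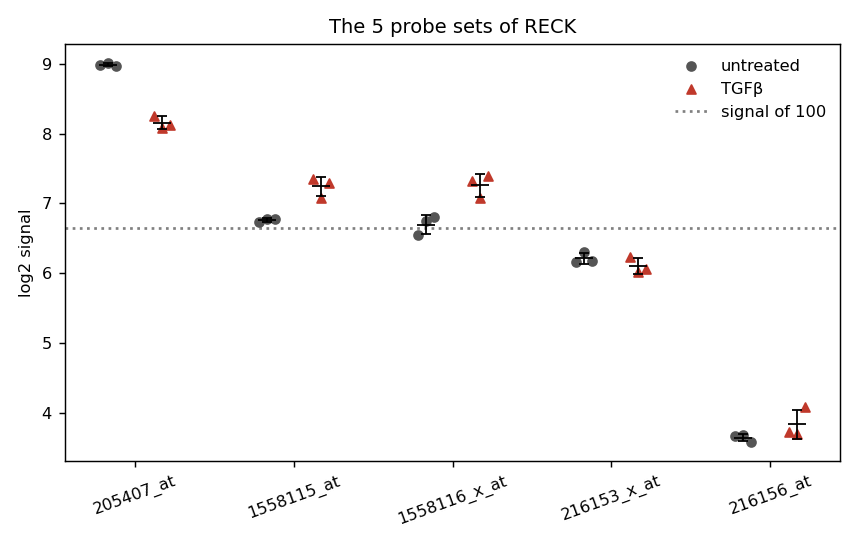
Log2 signal on each array (vertical axis) for the 5 probe sets of RECK (horizontal axis). Circles are the 3 untreated arrays, triangles the 3 TGFβ arrays, black bars the mean and SD, and the dotted line a signal of 100. The leftmost probe set falls from 8.99 to 8.15 while the next 2 rise from 6.76 to 7.24 and from 6.70 to 7.26.

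The probe sets do not tell where transcription starts, but the sequence before the annotated start gives context for the genes whose messages were read. Of the 9 genes, RECK, MMP14, MMP15, TIMP1 and TIMP3 matched the RefSeq promoter table (GRCh38.p14), and 3 are shown: RECK for its opposed probe sets, MMP14 as a gene that rose and TIMP1 as a bright gene that did not pass. Each is the 250 bases before the annotated start, 5′ to 3′ on the plus strand, and capitals mark GC boxes (GGGCGG on either strand), the core recognised by SP1.
RECK, chr9:36036663-36036912: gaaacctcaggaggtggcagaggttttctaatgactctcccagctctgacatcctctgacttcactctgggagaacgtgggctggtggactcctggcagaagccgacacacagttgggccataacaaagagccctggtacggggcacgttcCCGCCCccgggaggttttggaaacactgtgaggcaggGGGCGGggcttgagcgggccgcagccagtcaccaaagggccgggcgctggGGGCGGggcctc
MMP14, chr14:22836335-22836584: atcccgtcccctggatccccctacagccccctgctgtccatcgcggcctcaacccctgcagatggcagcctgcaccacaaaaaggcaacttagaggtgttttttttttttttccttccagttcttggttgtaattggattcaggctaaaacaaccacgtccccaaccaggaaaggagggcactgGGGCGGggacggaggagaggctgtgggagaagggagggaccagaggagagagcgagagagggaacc
TIMP1, chrX:47582186-47582435: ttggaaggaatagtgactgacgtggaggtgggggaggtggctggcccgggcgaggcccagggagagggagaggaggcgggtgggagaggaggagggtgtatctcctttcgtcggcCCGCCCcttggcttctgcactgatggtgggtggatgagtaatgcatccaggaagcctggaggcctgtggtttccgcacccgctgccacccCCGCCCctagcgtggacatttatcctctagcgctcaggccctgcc

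RECK held 3 GC boxes, MMP14 had 1 and TIMP1 had 2, while 42.6% of 35116 promoter windows of this length held at least 1. The AP-1 motif TGANTCA, read on both strands, was in 6.57% of the windows and in 0 of the 5 matched ones. These are matches of letters and say nothing of whether a factor binds.

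At gene level, 5 of the 9 genes were measured. MMP2 and TIMP2 rose, none fell, and TIMP1 and RECK did not pass. MMP14 was also called higher, but both of its probe sets were tested only because their treated means passed the limit, so it had to be higher to be measured. Over all 10115 genes tested, 58.7% were called, 27.7% as higher and 31.0% as lower, so 3 calls among 5 genes is close to the background. With the limit on the mean over all arrays, which favours neither group, 2 of 5 were called. The median log2 fold change of the 5 was 0.23 (the value of MMP14) and 0.12 with that limit, against -0.013 for all genes, and nothing is read from it about the family. Genes whose values over the 6 arrays lay closest to those of MMP2, each centred on its own mean, were the collagen hydroxylase P4HA2 (root mean square difference 0.025 on the log2 scale), the complement inhibitor CD59 (0.036) and RNF19B (0.037).

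Whether enzyme and inhibitor moved by different amounts was asked of pairs known to bind. MMP14 minus TIMP2, taken within each array, fell by 0.46 on the log2 scale with TGFβ (exact two-sided permutation p = 0.10, the smallest possible, and 0.20 adjusted over 3 pairs). Groups did not overlap, with TIMP2 rising more than MMP14. For MMP2 minus TIMP2 the change was 0.18 (exact permutation p = 0.20) and for MMP14 minus RECK 0.16 (exact permutation p = 0.20), both with overlapping groups. The MMP14 and RECK value rests on the mean of opposed RECK probe sets and moved with what was averaged: it was 0.95 with the brightest probe set of each gene and 0.40 without _x_at probe sets (exact permutation p = 0.10 for both). It was 0.048 with the limit on the mean over all arrays and 0.038 without replicate 2, so no size is read from it. Without the signal limit the MMP2 and TIMP2 value turned to -0.36. The pairs of MMP9 and TIMP1, MMP1 and TIMP1, and MMP15 and TIMP3 were not compared, since 1 or both genes were below the limit.

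**Figure D4:**
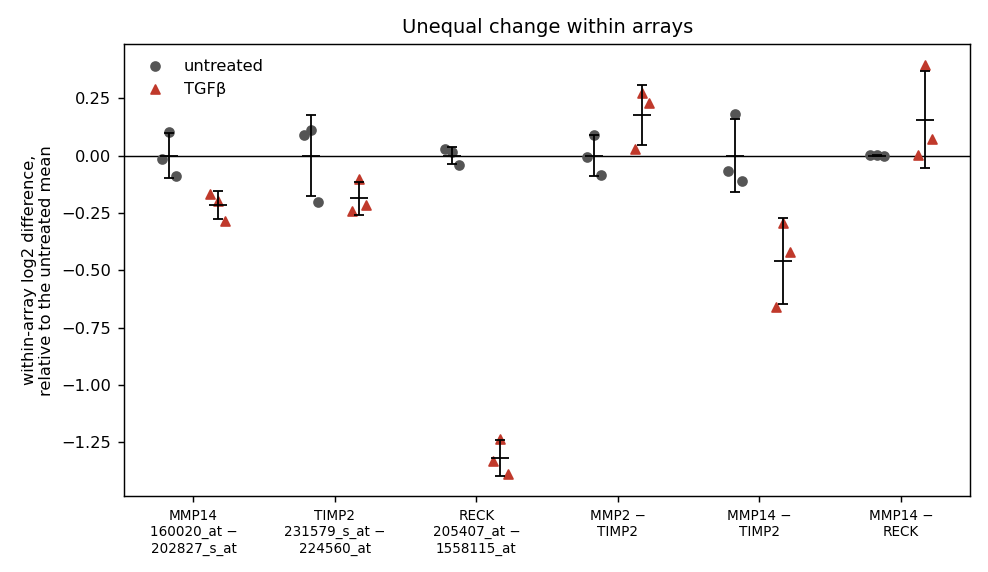
Within-array log2 difference between 2 probe sets of a gene (left) or between an enzyme and an inhibitor (right), with the untreated mean set to 0 (vertical axis) for each pair (horizontal axis). Circles are the 3 untreated and triangles the 3 TGFβ arrays, with mean and SD as black bars. The difference between the RECK probe sets falls by 1.32 and MMP14 minus TIMP2 by 0.46 (adjusted exact permutation p = 0.15 and 0.20). The other enzyme and inhibitor pairs overlap. MMP14 entered the test only through its treated arrays.

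Most other genes of the family were not measured. Of 19 further genes, the remaining MMPs and TIMP4, the array had 18 and 5 were measured, with 2 higher, 1 lower and 2 that did not pass. Since 58.7% of all genes were called, 3 of 5 is the background rate. MMP25, a lipid-anchored enzyme known from leukocytes, rose from 6.41 ± 0.065 to 6.96 ± 0.029 (SD, n = 3; log2 fold change 0.55, SE 0.056, and 0.32 without the signal limit). Its untreated mean was below the limit, so it was tested only through its treated arrays. MMP17, another lipid-anchored enzyme, rose from 7.22 ± 0.15 to 7.65 ± 0.068 (SD, n = 3; 0.43, SE 0.056). MMP16, a membrane-anchored relative of MMP14, fell from 8.20 ± 0.020 to 7.99 ± 0.016 (SD, n = 3; -0.21, SE 0.048, limma adjusted p = 0.0110). That call was lost without replicate 2 (adjusted p = 0.0783), without replicate 3 (0.0724) and without the signal limit (-0.071, adjusted p = 0.415). Of the 28 probe sets of these genes below the limit, 1 rose and 1 fell in the fit without it, against 9.22% and 11.0% of all probe sets, bright and dim together. They were MMP10, from 4.10 to 4.71, and an MMP28 probe set, from 5.38 to 4.63, named after their values were seen.

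Genes that activate, dock, induce or clear the enzymes formed another list. Of 23, 22 were on the array and 14 were measured, with 12 higher and 2 lower, against 27.7% higher and 31.0% lower of all genes, and a median log2 fold change of 0.49. Of the 12, 5 lost the call under at least 1 other setting (PCSK7, LRP1, CD44, CAV1 and CTTN, named for that loss), as did both that were lower. CD44 turned to -0.019 (adjusted p = 0.810) on its brightest probe set, and LRP1 lost the call in 5 of the limma settings counted. For 3 of the 12, THBS1, ITGB3 and PLAUR, every probe set entered the test only through the treated arrays. The largest rises were in the testican gene SPOCK1 (3.01, SE 0.051), THBS1, whose product thrombospondin binds MMP2 and MMP9 (2.34, SE 0.10, and 1.11 without the signal limit), and the integrin chain ITGB3 (1.77, SE 0.057, and 3.01 with the limit on the mean over all arrays). FURIN, the protease that removes the propeptide of MMP14, rose from 7.35 ± 0.12 to 7.91 ± 0.105 (SD, n = 3; log2 fold change 0.56, SE 0.085) and is named after its value was seen. The 2 that fell were SH3PXD2A, the TKS5 scaffold of invadopodia (-0.29, SE 0.051, and 0.0046 without the signal limit), and BSG, which encodes the MMP inducer EMMPRIN (-0.23, SE 0.051, adjusted p = 0.0573 without replicate 3).

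Matrix proteins cut by these enzymes made up a list of 18 genes, of which the array had 15 and 5 were measured. There were 4 that rose, against 27.7% of all genes, and TNC, which encodes tenascin C and is named after its value was seen, did not pass (-0.19, SE 0.096). The largest were the collagens COL1A1 (3.08, SE 0.084), COL7A1 (2.29, SE 0.077) and COL5A1 (1.35, SE 0.12). Both probe sets of COL5A1, 1 of 2 of COL7A1 and 1 of 4 of COL1A1 entered the test only through the treated arrays, so the count of 4 is no measure of how the list moved. Collagen I is a substrate of MMP14 and MMP1.

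Transcription factors known to act on MMP promoters were the last list. Of 19, 18 were on the array and 16 were measured, with 10 higher, 4 lower and 2 that did not pass, against 27.7% higher and 31.0% lower of all genes. RUNX2 lost its call as higher without the signal limit (adjusted p = 0.0520), and SMAD4 its call as lower in 3 settings (adjusted p = 0.115, 0.209 and 0.126), both named for that loss. At least 1 probe set entered only through the treated arrays for 4 of the 10, JUN, ETS1, ELK3 and ETV4. The AP-1 subunits JUNB (1.86, SE 0.060), JUN (1.19, SE 0.059) and FOSL2 (1.11, SE 0.085) had the largest rises. SMAD3 (-0.88, SE 0.050), SP1 (-0.47, SE 0.052) and JUND (-0.28, SE 0.056, adjusted p = 0.0511 without replicate 2) had the largest falls. Both this list and the list of activating genes hold genes picked for a known link to MMPs or TGFβ, and some were known to move in these data.

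**Figure D5:**
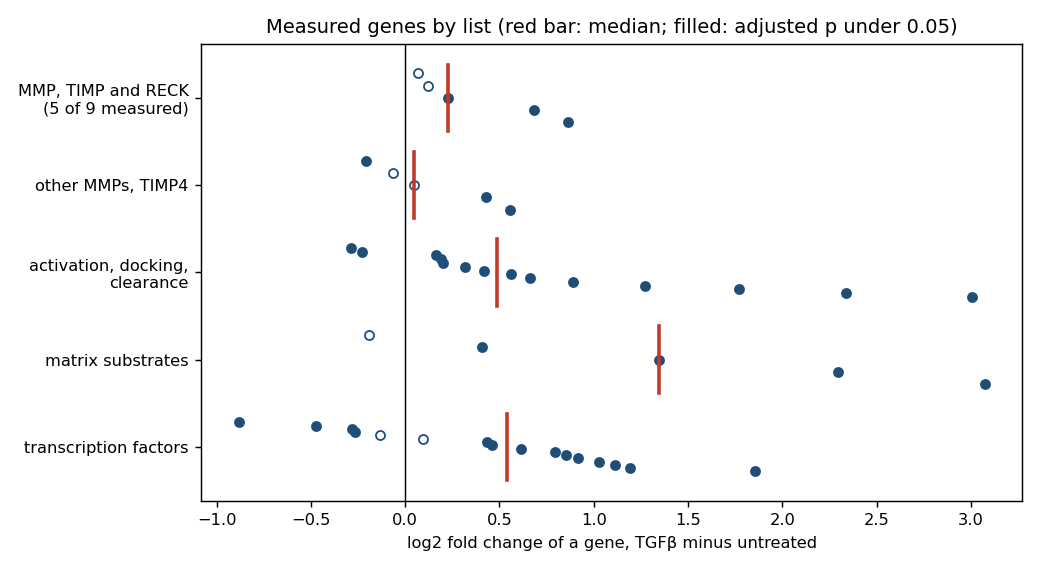
Log2 fold change of each measured gene with TGFβ (horizontal axis, n = 3 arrays per group) by list (vertical axis). Red bars are list medians and filled points had a limma adjusted p under 0.05. The 5 measured MMP, TIMP and RECK genes run from 0.070 to 0.86 with a median of 0.23, and the other MMPs have a median of 0.047.

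Markers were read on each gene's brightest probe set. Epithelial genes KRT8, KRT18, KRT7 and SOX9 were above the limit, and KRT19 was not. The summed signal of these 5 genes was 13537 to 13885 in untreated and 6541 to 6788 in treated cells. In the limma fit without a signal limit, KRT8, KRT18 and KRT19 were lower with TGFβ (-2.18, -1.25 and -1.26, adjusted p = 3.46e-06, 2.62e-05 and 0.000115). KRT7 and SOX9 did not pass in that fit (0.24 and -0.014, adjusted p = 0.136 and 0.935). The fall of KRT8, KRT18 and KRT19 moved with the changes above, and its part in them was not tested. Fibroblast, leukocyte, endothelial, acinar and islet markers were above the limit for 0 of the 15 on the array. Summed signals of the fibroblast list were 157 to 164 without and 149 to 173 with TGFβ, and those of the leukocyte list 73.7 to 74.6 and 74.8 to 80.1. Endothelial markers summed to 93.0 to 103.8 and 90.8 to 109.4, and acinar and islet markers to 39.8 to 44.4 and 41.6 to 43.6. The 3' minus 5' difference of the ACTB control probe sets, a sign of RNA quality, went from 0.55 ± 0.031 to 0.33 ± 0.060 (log2, SD, n = 3), and its part in the unequal probe sets was not tested. For GAPDH that difference was -0.0096 ± 0.0096 and -0.028 ± 0.023.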

How the data were processed

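The authors deposited log2 signals of 54675 probe sets for 6 arrays. The unit was read from the values, and the software, background correction and normalisation between arrays are not given in the sources used here. Control probe sets (62) were left out. The platform annotation gave 41091 probe sets with 1 gene, 1801 with several and 11721 with none, and symbols were updated through RefSeq by Entrez ID.

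The signal limit (a group mean of 100) and the replicate number as a block follow the study's paired test and exclusion rule. A gene was the mean of its remaining probe sets. Tests used limma 3.58.1 in R 4.3.3 (lmFit, eBayes, two-sided) over 19101 probe sets, 10115 genes or, for dim probe sets, all 54613. The fit of genes had 2 residual and 4.12 prior degrees of freedom. Benjamini-Hochberg adjustment covered all features of a fit. Within-array differences used exact permutation tests (scipy 1.17.1). Figures were drawn with matplotlib 3.10.9. The median signal of the arrays was 5.14 to 5.21, and the number of arrays limits precision. The workflow was tested on simulated data.

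The members and lists were chosen with earlier results of these data known. Named genes were the 9 members, from each other list the called genes with the 3 largest changes per direction, and the 3 genes nearest to the member with the largest rise; other genes named in the lists are marked as named after their values, or for a lost call or how they entered the test. No member gene fell, so no neighbours were sought for a fall. Probe sequences were not used here.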

Additional observations from a re-analysis of the deposited data

How the results depend on the processing

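Of 362 values of single genes or probe sets under other settings, 322 kept their direction and side of the threshold, 22 lost the call, 8 gained it and 10 turned in sign. RECK turned negative under the stricter filter on every array (-0.18, adjusted p = 0.0473), without _x_at probe sets (-0.18, adjusted p = 0.0528), with the brightest probe set or without the 2 probe sets that rose (-0.84), and without replicate 1 (-0.0058; -0.0058 to 0.15 with a replicate left out). The construction of these settings, which changes the probe sets averaged, accounts for all but the last, whose cause was not tested. Signs of dim probe sets also turned with a replicate left out, over ranges of -0.016 to 0.039 for MMP2 1566678_at and -0.075 to 0.011 for TIMP3 201148_s_at (both without replicate 1), -0.071 to 0.039 for MMP9 203936_s_at (without replicate 2) and -0.11 to 0.29 for MMP15 243883_at (-0.043 without replicate 2, -0.11 without replicate 3). MMP2 minus TIMP2 turned to -0.36 without the signal limit, which averages in dim MMP2 probe sets.

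Member genes called higher numbered 3, and 2 to 5 with a replicate left out. The 5 came without replicate 1, when TIMP1 passed and MMP15 reached the limit (0.20, adjusted p = 0.0117). Those called lower numbered 0 (0 also at an unadjusted p under 0.05 by the methods' t-test) and 1, RECK, under the stricter filter and with the brightest probe set. Member probe sets called higher numbered 7, and 4 under the stricter filter. After Benjamini-Hochberg adjustment the methods' t-test called 1 member gene, MMP2, as higher, and 1 member probe set as higher and 1 as lower (MMP2 and RECK 205407_at), on linear and on log2 values. Without the signal limit it called 0 and 0 in place of the 8 and 1 of limma, against 9 and 1 (linear values) and 8 and 1 (log2 values) at an unadjusted p under 0.05. Over all features that test called 2337 and 2414 genes (limma 5934), 2965 and 3274 probe sets (limma 10524), and 0 and 3 probe sets without the limit (limma 11056, or 6530 at an adjusted p under 0.01), on linear and log2 values. Leaving out a replicate gave 7143 to 11581 probe sets called without the limit, the fewest without replicate 3. The cause of these differences between tests was not tested.

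Without the replicate block 6265 genes were called, and TIMP3 201149_s_at was the 1 member probe set whose call changed. Replicate numbers were not shown to pair the arrays, since deviations of same-numbered arrays from their group means correlated at -0.24, 0.24 and 0.11, and untreated replicate 1 correlated best with TGFβ replicate 2 (0.29). Signals below the limit restrict what can be read for MMP1, MMP9, MMP15 and TIMP3, and MMP14, whose untreated means lay just below it, was measured only through its treated arrays.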
